A study of Mus musculus with 34 samples.

Results

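Macrophages of livers that had lost the transcriptional coactivators YAP and TAZ from the bile duct epithelium were compared with and without injury by carbon tetrachloride (CCl4), a toxicant that hepatocytes convert to a reactive radical. The comparison used 8 of the 16 macrophage libraries, of 34 libraries in the study, chosen by their genotype and treatment labels. The CCl4 group held libraries 13, 14, 17 and 18 and the group without CCl4 libraries 4, 5, 20 and 21, each from 1 mouse. All 8 mice were Opn-CreERt2 Yapfl/fl Tazfl/fl, that is, they carried floxed Yap1 and Wwtr1 (the gene of TAZ) and a tamoxifen-inducible Cre under the osteopontin promoter, which is active in biliary cells. The 8 remaining macrophage libraries came from Cre-negative Yap fl/fl Taz fl/fl siblings, libraries 11, 12, 15 and 16 with CCl4 and 6, 7, 8 and 9 without, called control livers here. Every mouse, on a mixed B6;129P background, was 7 to 8 weeks old when it was given 5 days of tamoxifen (1.6 mg/kg), and a washout of 3 weeks followed. CCl4 was given at 1 ml/kg, and cells were taken 48 h later. Living cells positive for F4/80 and CD45 were sorted, and RNA was counted as 3′ tags. The deletion was directed at biliary cells, so the macrophages were not its target.

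The resident macrophage of the liver, the Kupffer cell, lines the sinusoids, takes up dead cells and particles, and renews itself by division. After toxic injury part of the Kupffer cells can be lost, monocytes enter from the blood, and both can divide to refill the niche. A cell that divides first copies its DNA, with enzymes that make nucleotides, unwind the helix and join its strands. It then condenses its chromosomes, attaches them to the spindle through kinetochores and pulls the daughter cells apart with kinesin motors.

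In the knockout livers the macrophage genes that rose after CCl4 included 13 genes of mitosis and DNA replication. Of 10815 genes tested, 47 (0.435%) were called at an adjusted p under 0.05, 40 higher (0.37%) and 7 lower (0.0647%). The test was edgeR's quasi-likelihood test with Benjamini-Hochberg adjustment. It compared 4 with 4 libraries, with the spread estimated from all 16 macrophage libraries. With the 8 knockout libraries alone, 14 genes were called, 12 higher and 2 lower. At an unadjusted p under 0.05 the counts were 605 higher and 545 lower. Of the 40 higher genes 13 belonged to the lists of mitosis and DNA replication genes, and 27 to no list. In all 47 called genes the 4 CCl4 libraries and the 4 libraries without CCl4 did not overlap. The calls were made on the same values, so this separation is no further support for them. Of all genes tested, 3.64% lay higher without overlap and 3.14% lower. The median log2 fold change of all genes tested was 0.02. Below, a level is in CPM (counts scaled to 1e6 per library, with TMM factors) unless the library total is named as its base, and fold changes are log2 of CCl4 over no CCl4. The labels name no cage, injection or sorting batch for the mice. The p-values rest on the spread between libraries within the 4 macrophage groups, and libraries of a group were treated as independent.

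The libraries held 596380 to 2539224 counts, at which 3 counts stand for 1.18 to 5.03 CPM. Mitochondrial transcripts made up 6.94% to 15.9% of the counts. Adgre1, which encodes the sort marker F4/80, had 247 to 869 CPM in the CCl4 group and 560 to 670 CPM in the group without CCl4, and none of the 16 Kupffer cell markers listed was at 0 in all 8 libraries. Hepatocyte transcripts were present in all 8 libraries, with 3316 to 38729 CPM of the library total summed over 16 markers in the CCl4 group and 5080 to 16617 in the group without CCl4. Libraries 13 and 14 stood apart within the CCl4 group, with 38729 and 33148 CPM of hepatocyte markers, against 3682 and 3316 in libraries 17 and 18. The sum of 16 Kupffer cell markers ran the other way, with 6768 and 6686 CPM in libraries 13 and 14, 22175 and 23818 in libraries 17 and 18, and 18994 to 23955 in the 4 libraries without CCl4. In these bulk samples, fewer cells of a type and less RNA per cell cannot be told apart. Results are therefore also given without libraries 13 and 14, and without 17 and 18.

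Among the mitosis genes, Top2a, the topoisomerase that untangles sister chromosomes, had 304, 509, 373 and 637 CPM in CCl4 libraries 13, 14, 17 and 18, against 59.6, 44.5, 171 and 59.6 CPM in libraries 4, 5, 20 and 21 without CCl4. Every CCl4 library exceeded every library without CCl4, and library 20 was the highest of the uninjured group. Top2a rose by 2.45 (SE 0.377, adjusted p = 0.0155). Prc1, which bundles microtubules at the spindle midzone, had 67.9, 84.8, 69.1 and 74.7 CPM with CCl4, against 8.92, 8.08, 23.1 and 11.5 CPM without it. The CCl4 values were close together, and Prc1 rose by 2.53 (SE 0.401, adjusted p = 0.0155). Ttk, the kinase of the spindle checkpoint, had 35.9, 35.5, 32.2 and 39.4 CPM with CCl4, against 2.84, 1.01, 9.57 and 4.49 CPM without it, a rise of 2.99 (SE 0.481, adjusted p = 0.0155). Mki67, the gene of the proliferation antigen Ki-67, averaged 221.6 ± 36.2 CPM with CCl4 and 64.1 ± 21.7 CPM without it (SD, n = 4 each) and rose by 1.79 (SE 0.301, adjusted p = 0.0184).

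The promoters of these genes are shown because the genes moved together and because many genes of the late cell cycle carry CCAAT boxes and the element TTTGAA or TTCGAA. Each line gives the 150 bases upstream of the start site on the gene's strand (RefSeq, GRCm38.p6), with matches to these letters on either strand in capitals. The windows are chr11:99024190-99024339 on the minus strand for Top2a, chr7:80294301-80294450 on the plus strand for Prc1, chr9:83834539-83834688 on the plus strand for Ttk and chr7:135716380-135716529 on the minus strand for Mki67.
Top2a: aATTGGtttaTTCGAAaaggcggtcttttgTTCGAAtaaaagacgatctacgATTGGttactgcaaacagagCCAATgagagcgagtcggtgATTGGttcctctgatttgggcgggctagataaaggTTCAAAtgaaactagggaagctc
Prc1: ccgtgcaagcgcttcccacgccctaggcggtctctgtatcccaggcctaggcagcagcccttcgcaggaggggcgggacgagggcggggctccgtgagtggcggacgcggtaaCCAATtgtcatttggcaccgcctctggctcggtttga
Ttk: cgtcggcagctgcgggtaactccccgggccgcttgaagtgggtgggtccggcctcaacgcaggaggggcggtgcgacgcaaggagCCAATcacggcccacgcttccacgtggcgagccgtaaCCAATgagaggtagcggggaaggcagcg
Mki67: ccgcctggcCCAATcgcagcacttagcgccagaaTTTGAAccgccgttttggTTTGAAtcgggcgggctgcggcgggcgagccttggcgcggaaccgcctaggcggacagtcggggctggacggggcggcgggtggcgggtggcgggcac
In these windows Top2a holds 4 CCAAT matches and 3 of the other element, Mki67 1 and 2, Ttk 2 and 0, and Prc1 1 and 0. Promoters were given for 27 of the 40 higher genes. Within 250 bases upstream, CCAAT on either strand stood in 18 of these 27 (66.7%), against 36.2% of the 8155 tested genes that have a promoter in the table. TTTGAA or TTCGAA on either strand stood in 5 of 27 (18.5%), against 12.3%. The E2F-type letters TTTGGCGC, TTTCCCGC, TTTGCCGC or TTTCGCGC stood in 3 of 27 (11.1%), against 3.69%. Matches to different letters may share bases, and a match describes the window and is no measured binding site.

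Over the whole mitosis list, 26 of 28 genes were tested, 8 rose, 0 fell and 18 did not pass the test, and all 26 had a positive log2 fold change, with a median of 2.15 against 0.02 for all genes tested. At an unadjusted p under 0.05, 25 were higher, and in 20 of the 26 the CCl4 libraries lay above the others without overlap, as 3.64% of all genes did. Besides the 4 genes above, Kif23, Ndc80, Nusap1 and Bub1 rose. Kif23, a kinesin of the midzone that drives cytokinesis, had 80.5, 50.0, 81.3 and 84.5 CPM with CCl4, against 29.6, 31.3, 34.3 and 25.6 CPM without it, a rise of 1.29 (SE 0.255, adjusted p = 0.0356). Library 14 was the low one among the CCl4 values and still lay above all 4 uninjured ones. Nusap1, a spindle protein, had 82.4, 131, 89.0 and 138 CPM with CCl4, against 13.8, 6.06, 43.1 and 21.2 CPM without it, a rise of 2.39 (SE 0.497, adjusted p = 0.0469). Bub1, a checkpoint kinase, rose by 2.36 (SE 0.501) and Ndc80, which holds the microtubule at the kinetochore, by 1.69 (SE 0.342). Cenpe, a kinetochore kinesin, had 173 to 188 CPM with CCl4 and 14.1 to 96.5 CPM without it, and missed the threshold (2.03, SE 0.453, adjusted p = 0.0649).

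**Figure D1:**
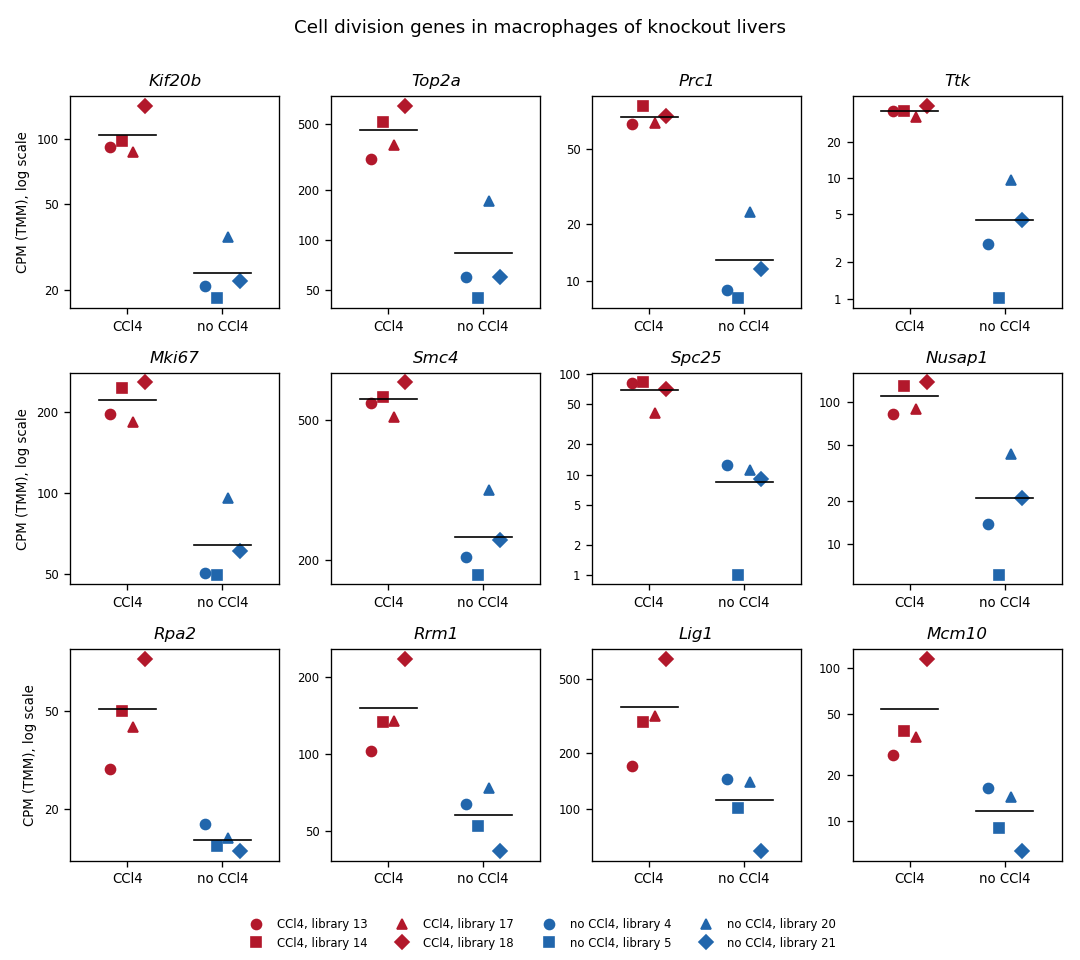
CPM (TMM-scaled, log axis) of 12 cell division genes in each of the 8 knockout macrophage libraries, CCl4 left and no CCl4 right, with 1 symbol per library and a bar at the group mean. In every panel the 4 CCl4 points lie above the 4 others. Library 20 (blue triangle) is the highest without CCl4 for Kif20b, Top2a, Prc1, Ttk, Mki67, Smc4, Nusap1 and Rrm1.

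The summed level of the mitosis list showed the same split by treatment in every library. It was 2282, 2874, 1984 and 2688 CPM of the library total in CCl4 libraries 13, 14, 17 and 18, against 306, 220, 1080 and 479 in libraries 4, 5, 20 and 21. The lowest CCl4 library thus held more than the highest library without CCl4. Libraries 17 and 18 were the lowest of all 8 in hepatocyte markers, and which cells the mitosis transcripts came from was not tested. Without libraries 13 and 14 the median of the list was 2.03, with 1 gene called, and without 17 and 18 it was 2.27, with 9 called. With the hepatocyte marker level as a term in the fit, 14 genes were called at a median of 2.11. Single libraries decided how many genes passed. None passed without CCl4 library 18, or without library 4, 5 or 21 of the uninjured group, and 19 passed without library 20, while the median stayed between 1.86 and 2.97 in these fits. DESeq2 called 19 of the 26 genes and limma with voom 20. With the 8 knockout libraries alone, edgeR called 3 of the 26 at a median of 2.14.

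The gene with the lowest p, Kif20b (chromosome 19, 34922361 to 34975745, GRCm38), encodes a kinesin of cytokinesis and was on no list. It had 92.1, 97.8, 87.5 and 143 CPM in CCl4 libraries 13, 14, 17 and 18, against 20.7, 18.2, 35.1 and 21.8 CPM in libraries 4, 5, 20 and 21. It rose 4.41-fold (log2 2.14, SE 0.259, adjusted p = 0.00167), and it kept its call in all 19 alternative fits, with values of 1.89 to 2.39. Every other called gene lost its call in some of these fits, for example Lmnb1 in 4 and Hirip3 in 14, the most of any. The upstream window of Kif20b, chr19:34922208-34922357 on the plus strand, holds none of the letters searched and is shown for contrast with those above.
Kif20b: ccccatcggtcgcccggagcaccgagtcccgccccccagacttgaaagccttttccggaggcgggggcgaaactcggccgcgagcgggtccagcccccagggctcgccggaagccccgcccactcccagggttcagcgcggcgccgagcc
Other genes of chromosome movement rose beside it. Spc25, a partner of Ndc80 in the kinetochore, had 81.4, 82.6, 41.4 and 71.6 CPM with CCl4, against 12.6, 1.01, 11.2 and 8.97 CPM without it (2.97, SE 0.546, adjusted p = 0.0246). Kif15, a spindle kinesin, had 63.0, 71.7, 93.6 and 132 CPM with CCl4, against 15.0, 3.03, 34.3 and 9.61 CPM without it (2.53, SE 0.505, adjusted p = 0.0379). Both groups spread widely and stayed apart. Stmn1, which destabilises microtubules, averaged 139 ± 55.6 CPM with CCl4 and 21.5 ± 19.6 CPM without it (2.69, SE 0.490, adjusted p = 0.0246). The condensin subunits Smc4 (1.30, SE 0.22), Smc2 (1.43, SE 0.293) and Ncapd2 (2.09, SE 0.416), which compact chromosomes, rose too, Smc4 with 558, 582, 511 and 639 CPM against 204, 182, 316 and 228 CPM.

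Regulators of the cycle were among the higher genes. Foxm1, a transcription factor of mitotic genes, had 21.3, 18.1, 27.6 and 31.4 CPM with CCl4, against 2.84, 2.02, 7.98 and 0.641 CPM without it, a rise of 2.87 (SE 0.588, adjusted p = 0.0385). Mybl1, a relative of the oncogene Myb, had 15.5, 22.5, 6.14 and 11.5 CPM with CCl4, against 0.811, 1.01, 2.39 and 1.28 CPM without it, a rise of 3.34 (SE 0.718, adjusted p = 0.0472). For both, every CCl4 library lay above library 20, the highest without CCl4. Pbk, a mitotic kinase, rose by 2.62 (SE 0.467), Tcf19, a factor linked to cell growth, by 2.54 (SE 0.548) and the formin Diaph3 by 2.54 (SE 0.539). Hmmr, which acts at the spindle, rose by 2.53 (SE 0.506), the ubiquitin ligase G2e3 by 1.38 (SE 0.249) and the Ran regulator Rangap1 by 1.21 (SE 0.247). Prr11 had 47 counts in the CCl4 libraries and 2 in the others, a ratio of 29.7 with a 95% counting interval of 7.77 to 252, which covers counting error only.

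DNA replication genes rose less far. Rpa2, a subunit of the protein that coats single-stranded DNA, had 29.1, 50.0, 43.0 and 81.8 CPM in CCl4 libraries 13, 14, 17 and 18, against 17.4, 14.1, 15.2 and 13.5 CPM in libraries 4, 5, 20 and 21 (1.76, SE 0.299, adjusted p = 0.0184). The uninjured values spanned a narrow range, while library 18 was the highest of the CCl4 group. Its promoter (chr4:132768210-132768359, plus strand), shown as the replication counterpart of the mitotic ones, has 2 CCAAT matches.
Rpa2: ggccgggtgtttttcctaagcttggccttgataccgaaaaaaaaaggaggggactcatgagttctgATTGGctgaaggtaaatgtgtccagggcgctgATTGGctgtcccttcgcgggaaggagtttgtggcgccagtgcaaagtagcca
Rrm1, a subunit of ribonucleotide reductase, rose by 1.39 (SE 0.259, adjusted p = 0.0246), the DNA ligase Lig1 by 1.68 (SE 0.339, adjusted p = 0.0379) and the origin factor Mcm10 by 2.22 (SE 0.419, adjusted p = 0.0267). Mcm10 reached 115 CPM in library 18, against 27.1 to 39.1 CPM in the other CCl4 libraries and 6.41 to 16.6 CPM without CCl4. On the replication list 26 of 30 genes were tested, 5 rose, 0 fell and 21 did not pass, with a median of 1.40, 24 higher at an unadjusted p under 0.05 and 10 without overlap. Rrm2, the partner of Rrm1, missed the threshold at 2.75 (SE 0.593, adjusted p = 0.0519).

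Summed over the replication list, the libraries held 1194, 2138, 1912 and 4000 CPM of the library total with CCl4, against 924, 785, 994 and 494 without it. Library 18 held the most and library 13 the least of the CCl4 group. Without CCl4 library 18 no gene of the list passed and the median was 1.01, without library 21 none passed at 1.21, and without library 4 or 5, 1 gene passed at 1.41 or 1.39. Without libraries 13 and 14, 5 passed at a median of 1.67, and without 17 and 18, 4 passed at a median of 1.00. With the 8 knockout libraries alone, 1 passed at a median of 1.37. Further genes of DNA and chromatin that rose were Pclaf, a partner of the replication clamp (2.98, SE 0.503), the recombination gene Rad54b (3.60, SE 0.654), lamin B1 (Lmnb1, 2.04, SE 0.351) and the heterochromatin proteins Cbx3 (1.20, SE 0.222) and Cbx5 (1.21, SE 0.239). Nsd2, a histone methyltransferase, rose by 1.23 (SE 0.239) and Hirip3, named for binding the histone chaperone HIRA, by 1.82 (SE 0.389). Others were the pseudogene 2700099C18Rik (2.43, SE 0.480), the long non-coding RNA AC157548.1 (1.64, SE 0.352) and Brip1os (1.27, SE 0.250), which is annotated as antisense and whose reads cannot be told from those of a partner on the other strand, since the strand setting of the counting is not known.

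Genes that gate entry into the cycle did not pass the test. Of 17 tested genes of the list of G1/S cyclins, kinases and inhibitors, 0 were called by edgeR, 3 by DESeq2 and 0 by voom, with 7 higher at an unadjusted p under 0.05 and a median of 0.58. With the hepatocyte term or without library 20, 2 were called, and without libraries 17 and 18, 1. Ccne1, cyclin E1, had 14.5, 21, 16.9 and 51.7 CPM with CCl4, against 2.03, 2.02, 7.98 and 0.641 CPM without it (3.10, SE 0.696, adjusted p = 0.0604). The groups did not overlap. E2f8, a repressor of the E2F family, had 8.72, 23.9, 26.1 and 49.5 CPM with CCl4, against 2.43, 1.01, 10.4 and 1.28 CPM without it (2.87, SE 0.767, adjusted p = 0.124), with library 13 below library 20. The inhibitor p21 (Cdkn1a) stood at 0.58 (SE 0.196, adjusted p = 0.244).

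**Figure D2:**
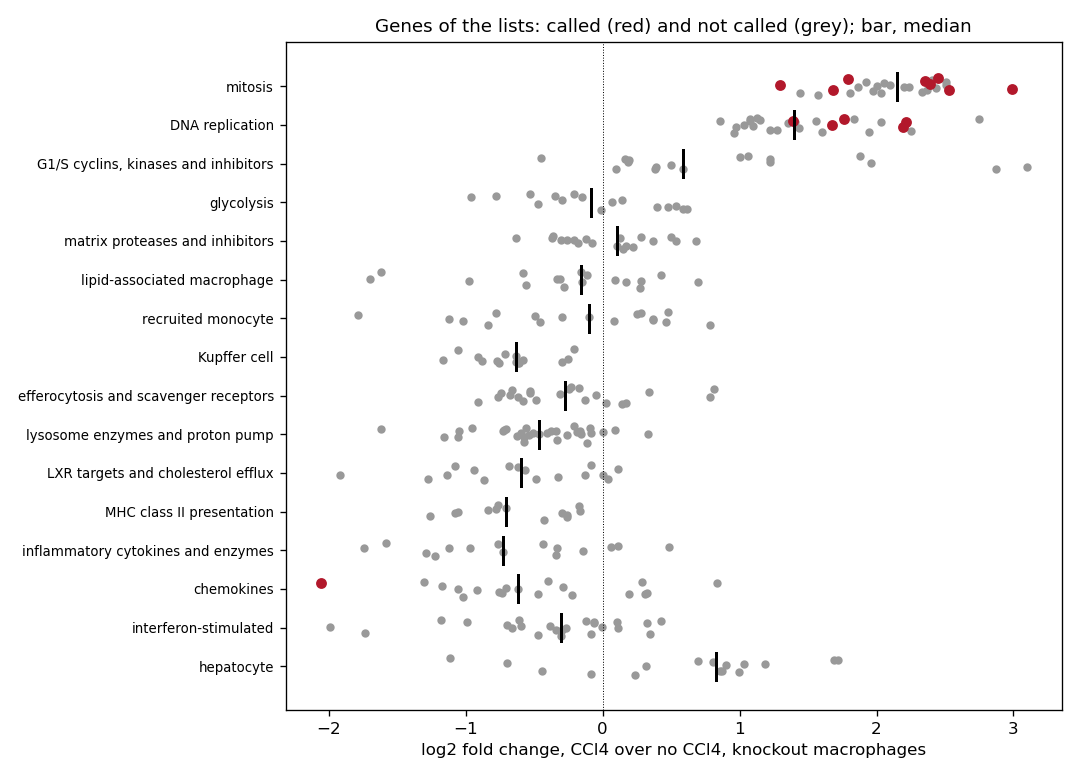
Log2 fold changes (CCl4 over no CCl4, knockout macrophages) of the tested genes of 16 gene lists, 1 point per gene, red where called, with a bar at each list's median. All points of the mitosis and DNA replication lists lie above 0, while all points of the Kupffer cell and MHC class II lists lie below 0 with none called.

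The 7 lower genes shared no list. Gsr (chromosome 8, 33652523 to 33698163), glutathione reductase, had 29.1, 17.4, 23.0 and 20.8 CPM in CCl4 libraries 13, 14, 17 and 18, against 99.0, 97.0, 54.3 and 101 CPM in libraries 4, 5, 20 and 21. All CCl4 values lay below library 20, the lowest without CCl4. Gsr fell by 1.97 (SE 0.347, adjusted p = 0.0218). It was the only called gene of the NRF2 antioxidant list, on which 1 of 17 genes fell and 0 rose, at a median of -0.29. Hmox1, heme oxygenase 1 of the same list, had 90.2, 87.7, 236 and 418 CPM with CCl4, against 2308, 853, 274 and 275 CPM without it (-2.15, SE 0.83, adjusted p = 0.351), and its groups overlapped.

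Ccl24 (chromosome 5, 135569937 to 135573049), the eosinophil chemokine eotaxin-2 made by alternatively activated macrophages, had 37.8, 28.3, 107 and 117 CPM with CCl4, against 348, 256, 438 and 165 CPM without it. Libraries 13 and 14 were the lowest, and all 4 lay below library 21. Ccl24 fell by 2.06 (SE 0.433, adjusted p = 0.0472). Of 19 tested chemokines it was the only one called, and the list's median was -0.62, with 14 of 19 negative. On the list of alternative activation, 1 of 9 tested genes fell, again Ccl24, and the median was -0.31. Arginase 1 (Arg1) stood at 0.12 (SE 0.631, adjusted p = 0.970), and Mrc1, the mannose receptor, -0.53 (SE 0.284, adjusted p = 0.546).

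Csf2ra, the alpha chain of the GM-CSF receptor, had 65.9, 86.9, 134 and 123 CPM with CCl4, against 186, 315, 379 and 244 CPM without it, and fell by 1.46 (SE 0.300, adjusted p = 0.0388). Mir22hg, the host transcript of microRNA 22, had 32.0, 36.9, 30.7 and 31.0 CPM with CCl4, against 84.4, 96.0, 91.7 and 82.0 CPM without it, and fell by 1.43 (SE 0.262, adjusted p = 0.0243). Its values were close together within each group. Tifa, an adaptor of NF-kB signalling, fell by 1.02 (SE 0.210, adjusted p = 0.0401) and Klf7, a zinc finger transcription factor, by 0.86 (SE 0.185, adjusted p = 0.0472). H2-K2, which fell by 1.52 (SE 0.318, adjusted p = 0.0435), is annotated as a pseudogene near to other class I genes in sequence, so its reads are uncertain. None of the 7 was called without libraries 13 and 14, and the CCl4 libraries left, 17 and 18, had 23.0 and 20.8 CPM of Gsr.

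**Figure D3:**
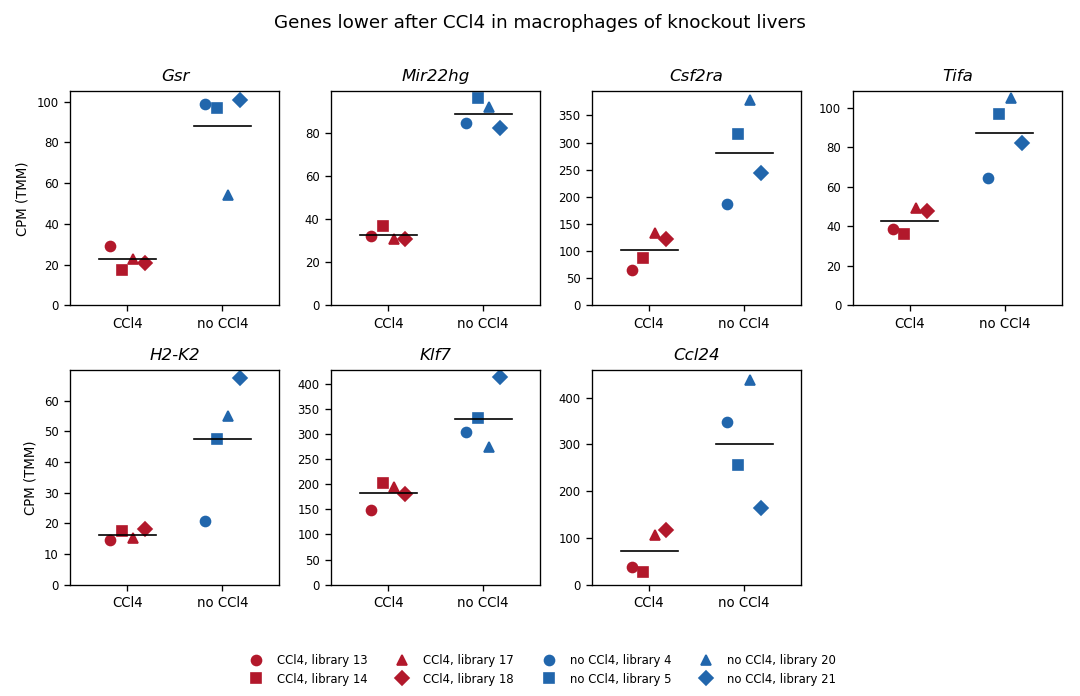
CPM (TMM-scaled, linear axis from 0) of the 7 genes that fell, in each knockout macrophage library, CCl4 left and no CCl4 right, with a bar at the group mean. Libraries 13 and 14 (circle and square, red) are the 2 lowest for Ccl24, Csf2ra and Tifa, and for Mir22hg all 4 CCl4 libraries lie between 30.7 and 36.9.

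No Kupffer cell marker was called in edgeR's fit of all 16 macrophage libraries. All 15 tested markers had negative values, with a median of -0.64, and 7 were lower at an unadjusted p under 0.05. DESeq2 and voom called 0 of them as well, and with the hepatocyte marker level as a term 2 were called lower at a median of -0.82. Timd4, a receptor for dying cells, had 113, 89.8, 296 and 434 CPM in CCl4 libraries 13, 14, 17 and 18, against 432, 523, 430 and 368 CPM in libraries 4, 5, 20 and 21 (-0.91, SE 0.413, adjusted p = 0.446). Fcna, a ficolin, had 350, 345, 1272 and 1217 CPM with CCl4, against 2066, 1949, 1174 and 1422 CPM without it (-1.06, SE 0.379, adjusted p = 0.289). In both, libraries 13 and 14 lay below all others. Libraries 17 and 18 lay among the uninjured values for Fcna, whereas for Timd4 library 17 lay below all 4 of them. Without libraries 17 and 18, 12 of 16 markers were called lower at a median of -1.88, and without 13 and 14 none was called, at a median of -0.13. Of all 11668 genes tested without 17 and 18, 346 were called lower and 139 higher, the background for the counts of that fit below.

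Other macrophage lists were also lower in libraries 13 and 14. Of 31 lysosomal genes 29 were negative (median -0.47), and 0 were called by edgeR, 2 by DESeq2 and 0 by voom, with 7 lower at an unadjusted p under 0.05. Without libraries 17 and 18, 11 were called lower at a median of -0.98, and without 13 and 14, 0 at a median of -0.14. Of 16 LXR targets and cholesterol efflux genes 13 were negative (median -0.59, 6 lower unadjusted), among them Abca1 with 205, 113, 427 and 336 CPM with CCl4, against 466, 452, 842 and 303 CPM without it (-0.94, SE 0.388, adjusted p = 0.384). None was called by edgeR, DESeq2 or voom. MHC class II genes had 13 of 13 negative values and a median of -0.71, with 2 lower unadjusted and 0 called by any of these tools. Without libraries 13 and 14 the medians of the LXR and MHC class II lists were -0.31 and -0.34 with 0 called, and without 17 and 18 they were -0.95 and -1.29 with 6 and 2 called lower. The summed level of the MHC class II list split the uninjured libraries as well. It was 3901, 3576, 9571 and 7675 CPM of the library total with CCl4, against 5053, 5345, 11400 and 13038 without it.

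**Figure D4:**
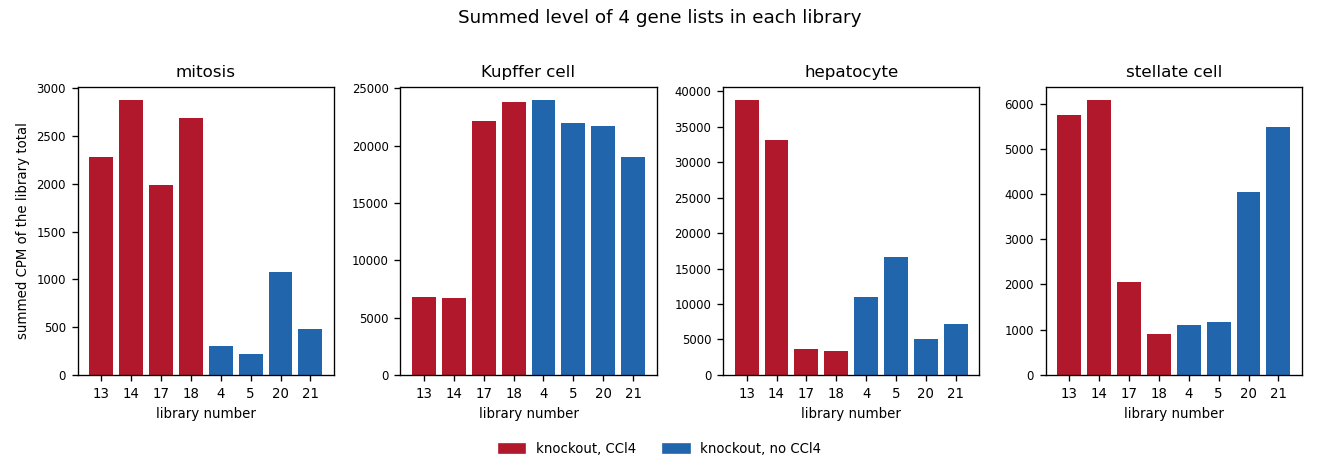
Summed CPM of the library total of 4 gene lists in each knockout macrophage library, CCl4 in red and no CCl4 in blue. The mitosis sum is high in all 4 CCl4 libraries, whereas Kupffer cell markers are low and hepatocyte markers high in libraries 13 and 14 alone, and stellate cell markers are high in 13, 14, 20 and 21.

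Inflammatory mediators did not pass the test in edgeR's fit. Of 15 tested cytokines and enzymes 12 were negative (median -0.73), 8 were lower at an unadjusted p under 0.05, and edgeR called 0, DESeq2 1 and voom 1. Without libraries 17 and 18, 3 were called lower at a median of -1.24, with the hepatocyte term 2 at -0.72, and without 13 and 14, 0 at -0.45. Il6, interleukin 6, had 49.4, 18.1, 69.1 and 28.7 CPM with CCl4, against 186, 104, 132 and 112 CPM without it, so that the groups did not overlap (-1.74, SE 0.422, adjusted p = 0.0892). Il1b, interleukin 1 beta, had 1118, 1167, 1817 and 1958 CPM with CCl4, against 2413, 2142, 2424 and 3294 CPM without it (-0.76, SE 0.268, adjusted p = 0.281), again with no overlap. Tnf had 144, 332, 371 and 779 CPM with CCl4, against 866, 1004, 1002 and 677 CPM without it (-1.12, SE 0.509, adjusted p = 0.446), and library 18 lay above library 21. Of the 17 tested monocyte markers 0 were called by edgeR, 1 by DESeq2 and 0 by voom, 4 were lower unadjusted, and the median was -0.10. The median was -0.34 without libraries 13 and 14 and 0.06 without 17 and 18, with 0 and 2 called lower. Ly6c2, the marker of classical monocytes, had 8.72, 19.6, 10.7 and 10.6 CPM with CCl4, against 8.11, 12.1, 7.18 and 8.97 CPM without it (0.47, SE 0.424, adjusted p = 0.768).

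Markers of other cells varied between libraries of the same group. Of 16 hepatocyte markers 0 were called by edgeR, DESeq2 or voom, 0 had an unadjusted p under 0.05, and the median was 0.83. The sign of that median rested on libraries 13 and 14, without which it was -1.60 with all 16 negative. It was 0.25 without library 13, 0.48 without library 14, 0.19 by voom and 1.67 without libraries 17 and 18. Alb, albumin, had 19489, 15874, 1809 and 1795 CPM with CCl4, against 5686, 9498, 2693 and 3619 CPM without it. Stellate cell markers summed to 5740, 6071, 2061 and 901 CPM of the library total with CCl4, against 1104, 1174, 4046 and 5491 without it, and endothelial markers to 1083 to 3078 against 1628 to 4075. The summed biliary markers did not overlap, with 204, 275, 50 and 44 CPM of the library total with CCl4, against 33, 24, 32 and 30 without it. Only 1 of 9, Sox9, had enough counts to be tested. It was not called and overlapped, with 17.1 CPM of the library total in library 18 and 20.3 in library 20. Without the count filter 9 of 9 were positive and 1 was called. Without libraries 17 and 18, 2 of 7 tested were called higher at a median of 2.71, and without 13 and 14, 0 of 4 at 0.84. Neutrophil markers summed to 172 to 287 CPM with CCl4, against 247 to 351 without it, and T and NK cell markers to 63.7 to 117 against 37.8 to 241. B cell markers reached 66.0 to 548 CPM with CCl4, against 157 to 461 without it, dendritic cell markers 167 to 220 against 154 to 195, and erythroid and platelet markers 168 to 973 against 273 to 482. No marker of these lists was at 0 in all 8 libraries. Their part in the differences above was not tested beyond the fits named.

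Levels of the deleted genes do not bear on the genotype labels here, as macrophages were not the target of the Cre. Yap1 had 45.6, 66.7, 18.4 and 15.0 CPM with CCl4, against 13.8, 20.2, 23.1 and 32.0 CPM without it (0.72, SE 0.617, adjusted p = 0.760). Wwtr1 had 63.0, 51.4, 23.0 and 12.8 CPM with CCl4, against 11.4, 28.3, 20.7 and 39.7 CPM without it (0.59, SE 0.717, adjusted p = 0.846). Both were highest in libraries 13 and 14.

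In macrophages of control livers the same fit called 620 genes higher after CCl4 (5.73%) and 520 lower (4.81%). Whether the difference after CCl4 itself depended on genotype was tested as an interaction, knockout minus control, and 12 genes (0.111%) passed, 4 positive and 8 negative. Of all 10815 genes tested, 1207 had an unadjusted p under 0.05 for the interaction by edgeR. Control libraries 8 and 11 belong to another numbered series of sequencing files than the rest, and 1 label of library 11 names the other genotype. Within the second series alone 4 genes passed, with the series as a term 12, and without library 11, 8. For the mitosis list the interaction was called for 0 of 26 genes by edgeR, DESeq2 or voom, with 12 at an unadjusted p under 0.05 by edgeR. The list's median log2 fold change was 2.15 in knockout livers with 8 genes called, and 3.58 in control livers with 25 called. Its summed level after CCl4, on the base of the library total, was alike in both genotypes. Knockout libraries held 1984 to 2874 CPM and control libraries 2089 to 2952. Without CCl4 the knockout range, 220 to 1080 with library 20 highest, reached above the control range of 158 to 270. The part of this uninjured level in the smaller fold change was not tested. The interaction was negative for 25 of the 26 genes, at a median of -1.34. For replication genes it was called for 0 of 26 by edgeR, 1 by DESeq2 and 0 by voom, with 5 unadjusted. The median log2 fold change was 1.40 in knockout livers and 2.13 in control livers. On the same base, replication sums after CCl4 were 1194 to 4000 CPM (knockout) and 1795 to 2462.5 (control). Without CCl4 they were 494 to 994 (knockout) and 336 to 474 (control).

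The 8 negative interaction genes were higher after CCl4 in control livers and not called in knockout livers. Emp1 (chromosome 6, 135362545 to 135383173), an epithelial membrane protein, had 63.0, 94.2, 46.0 and 31.8 CPM in knockout libraries 13, 14, 17 and 18 with CCl4, against 60.9, 82.9, 54.3 and 67.3 CPM in knockout libraries 4, 5, 20 and 21 without it. In control livers it had 177, 158, 229 and 350 CPM with CCl4 (libraries 11, 12, 15 and 16), against 21.8, 29.1, 24.3 and 23.0 CPM without it (libraries 6, 7, 8 and 9). The knockout groups overlapped and lay between the control groups. The interaction was -3.38 (SE 0.436, adjusted p = 0.00409), from -0.17 in knockout livers and 3.21 in control livers. Cd36, a scavenger receptor for oxidised lipids, had 247, 216, 219 and 267 CPM in knockout livers with CCl4, against 209, 228, 199 and 208 CPM without it. It had 343, 301, 490 and 666 CPM in control livers with CCl4, against 62.8, 95.9, 76.1 and 114 CPM without it, an interaction of -2.20 (SE 0.342, adjusted p = 0.0119). For both genes, and for Gdf3, Stap1, Lsp1, Lpl and Lgals3, the uninjured knockout libraries lay above all uninjured control libraries. For Myo5a these groups overlapped. Emp1 and Cd36 kept the call in all 28 alternative fits. Gdf3 and Myo5a lost it in 1 of 28, Sult2a8 in 7, Stap1 in 9, Lsp1 in 12, Lgals3 in 14, Lpl in 15, Mettl7a1 in 18, Cyp2c54 in 19 and Gpc3 in 19 of 26, and none changed direction.

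Lpl, lipoprotein lipase, had 857, 1019, 1301 and 1720 CPM in knockout livers with CCl4, against 2002, 1849, 1857 and 1618 CPM without it. In control livers it had 2755, 2476, 4026 and 6789 CPM with CCl4, against 1472, 629, 464 and 482 CPM without it, and the interaction was -2.98 (SE 0.534, adjusted p = 0.0368). Lgals3, galectin 3, had 184, 262, 453 and 705 CPM in knockout livers with CCl4, against 898, 781, 958 and 517 CPM without it, an interaction of -2.96 (SE 0.541, adjusted p = 0.0393). Its values in control livers were 1016, 805, 1707 and 2162 CPM with CCl4, against 425, 434, 307 and 269 CPM without it. Cd36, Lpl and Lgals3 belong to the list of lipid-associated macrophages, cells that clear lipid and debris. The calls of Lpl and Lgals3 were among those often lost in other fits. On that list 3 of 17 tested genes had a called interaction (10 by DESeq2, 4 by voom), and all 17 were negative. The median log2 fold change was -0.16 in knockout livers (0 called by edgeR, DESeq2 or voom, 3 lower unadjusted). It was 1.99 in control livers (11 called higher). Without CCl4, control sums of this list (base: library totals) lay between 3269 and 4151 CPM, and knockout sums between 6536 and 7880. The 17 tested monocyte markers leaned the same way, with 14 interactions negative and a median of -1.62. DESeq2 called 4, all negative, edgeR and voom 0, and 11 had an unadjusted p under 0.05 by edgeR. Their median log2 fold change was -0.10 in knockout livers and 1.45 in control livers (8 called higher).

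Of the other negative genes, Gdf3, a growth factor of the TGF-beta family, had an interaction of -5.55 (SE 0.875), the motor Myo5a -3.01 (SE 0.472), the signalling adaptor Stap1 -3.46 (SE 0.595) and the leukocyte actin-binding protein Lsp1 -2.43 (SE 0.422). Gdf3 had 3.88, 11.6, 12.3 and 3.54 CPM in knockout livers with CCl4, against 11, 8.08, 14.4 and 10.9 CPM without it, and in control livers 28.7, 21.5, 53.8 and 49.4 CPM with CCl4, against 0, 0.786, 2.39 and 0 CPM without it. The 4 positive genes were Sult2a8 (7.12, SE 1.11), Cyp2c54 (7.77, SE 1.43), Gpc3 (5.57, SE 1.05) and Mettl7a1 (2.93, SE 0.543). They were called lower after CCl4 in control livers, and none was called in knockout livers (edgeR, adjusted p 0.278 to 0.767). Sult2a8, a sulfotransferase, and Cyp2c54, a cytochrome P450, are known from hepatocytes. Sult2a8 had 4.85, 5.07, 0 and 0.442 CPM in knockout livers with CCl4, against 0.811, 1.01, 0 and 1.92 CPM without it. In control livers it had 0.611, 3.07, 1.03 and 0.897 CPM with CCl4, against 52.9, 66.8, 103 and 45.1 CPM without it. Cyp2c54 had 2 counts in control livers with CCl4 and 335 without it, a ratio of 0.0082 (counting interval 0.000989 to 0.0299), and its fitted value depends on the prior count. In control livers the 16 hepatocyte markers summed to 10015, 19881, 1093 and 467 CPM of the library total with CCl4, against 18763 to 20958 without it. With the hepatocyte marker level as a term, 8 interactions were called, 2 positive and 6 negative.

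**Figure D5:**
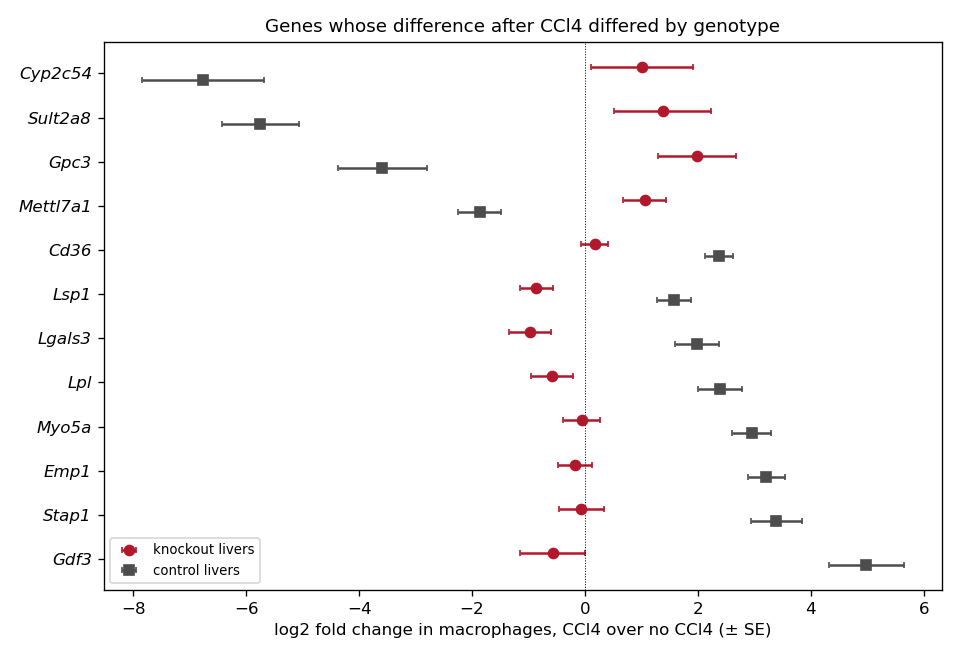
Log2 fold changes (CCl4 over no CCl4, ± SE) of the 12 genes with a called interaction, in macrophages of knockout livers (red circles, upper) and control livers (grey squares, lower). The 8 negative genes lie between -0.97 and 0.17 in knockout livers and between 1.57 and 4.98 in control livers. The 4 positive genes lie above 0 in knockout livers, where none was called, and below 0 in control livers.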

How the data were processed

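Gene expression was measured in macrophages sorted from single mice with QuantSeq 3′ forward libraries, read as single 50 bp reads, per the labels' protocols. Per the submitters' processing notes, Trimmomatic 0.39, HISAT2 2.1.0 and GRCm38/mm10 were used. The table the authors deposited holds raw counts for 26233 gene symbols. For the counter, annotation and strand setting, nothing is stated: not given in the sources used here. Trem2, Aldoa and Kif11 were not analysed here, and some called genes are counted but not reported here by name. The 16 macrophage libraries held 596380 to 5128587 counts, and low totals limit the precision of low genes.

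Groups follow the genotype and treatment labels. For library 11, a control, 1 label names the other genotype. Sequencing files are numbered with a gap between 14 and 35, taken as 2 file series. No library was a copy of another of its group (chi-square per degree of freedom 5.16 to 32.8 between pairs).

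One model of the 4 macrophage groups was fitted in edgeR 4.0.16 (R 4.3.3), after filterByExpr, with TMM scaling and a robust quasi-likelihood test. Adjustment by Benjamini-Hochberg covered all genes tested, with a threshold of 0.05. An approximate SE was had by dividing the log2 fold change by the root of F. Scripts were tested on simulated counts. Other settings tried were DESeq2 1.42.0, limma 3.58.1 with voom, RLE factors, no filter, a fit that was not robust, thinning, the 8 knockout libraries alone, the file series, and leaving out each library. Leaving out 2 libraries at once and a hepatocyte term were chosen after seeing the data. The groups, lists and members were chosen with earlier results of these data known. Genes were named by a rule (Yap1, Wwtr1, the 12 called genes of largest change each way with at least 10 CPM, 6 interaction genes each way, up to 4 per list), and other called genes, among them Kif20b and Smc4, were named after their values were seen. Promoters came from RefSeq (GRCm38.p6), and gene positions from the GENCODE annotation of GRCm38.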

Additional observations from a re-analysis of the deposited data

Results flagged for a closer look

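Of 166 groups of 4 libraries examined for a sample far from the rest, 12 were flagged, where chance flags about 1 in 20. In the CCl4 group, library 18 stood above the others for Mcm10 (114.5 CPM, others 27.1 to 39.1), Smc2 (376.8 CPM, others 211 to 227) and Diaph3 (89.3 CPM, others 31.0 to 36.2), and below them for 2700099C18Rik (18.1 CPM, others 22.5 to 23.3). Library 14 stood below the others for Kif23 (50.0 CPM, others 80.5 to 84.5). In the group without CCl4, library 20 stood above the others for Smc2 (142 CPM, others 77.9 to 86.5), Top2a (170.7 CPM, others 44.5 to 59.6) and 2700099C18Rik (8.78 CPM, others 2.03 to 3.03), and below them for Gsr (54.3 CPM, others 97.0 to 101). Library 21 stood below the others for the summed heat shock genes (3138 CPM of the library total, others 3481 to 3540). It stood above them for the summed Kupffer cell transcription factors (8109 CPM of the library total, others 6251 to 6453). Library 4 stood above the others for Brip1os (70.2 CPM, others 35.3 to 39.9).

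For 12 genes the log2 fold change after CCl4 differed between knockout and control livers by the test of the interaction (edgeR, adjusted p 0.00409 to 0.0448). The interactions were -3.38 for Emp1, -2.20 for Cd36, -3.01 for Myo5a, -5.55 for Gdf3, -3.46 for Stap1, -2.43 for Lsp1, -2.98 for Lpl and -2.96 for Lgals3. They were 7.12 for Sult2a8, 7.77 for Cyp2c54, 2.93 for Mettl7a1 and 5.57 for Gpc3.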

How the results depend on the processing

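No called gene changed direction in any alternative. The count of 47 called genes (40 higher, 7 lower) became 126 without a filter on low counts (90 and 36), 208 by DESeq2 (156 and 52), 83 by limma with voom (71 and 12) and 14 with the 8 knockout libraries alone (12 and 2). Leaving out 1 library gave 1 to 81 calls, 1 to 77 higher and 0 to 4 lower. The extremes were 1 without library 18 or 21 and 81 without library 20, and it was 20, 16 and 24 without library 13, 14 and 17 and 4 and 3 without library 4 and 5. In alternatives chosen after seeing the data, the count was 11 (11 and 0) without libraries 13 and 14, 485 (139 and 346) without 17 and 18, and 217 (109 and 108) with a hepatocyte term. Leaving out libraries leaves fewer samples, and the counts moved both up and down. The cause of these differences was not tested. With RLE factors, a fit that was not robust, library 11 left out or thinning to the smallest total, the count stayed between 36 and 50. The 12 interaction calls (4 positive, 8 negative) became 90 without a filter (38 and 52), 162 by DESeq2 (89 and 73), 6 after thinning (0 positive), 4 in the second file series (0 and 4), 297 without libraries 17 and 18 (182 and 115) and 4 to 43 with 1 library left out (0 to 21 positive, 4 to 22 negative). Positive calls were 2 with voom, 1 without library 11, 7 without libraries 13 and 14 and 2 with a hepatocyte term. The highest interaction count, 43, came without control library 12. No paired analysis was possible because the macrophage libraries with and without CCl4 share no library number and came from different mice. At 596380 counts, the smallest total, 3 counts stand for 5.03 CPM, so a change below that level was not detectable there.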

Other observations

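Immediate early genes, which respond within minutes to stress and handling, were not called in knockout macrophages by edgeR, DESeq2 or voom with all libraries, and 3 were called lower without libraries 17 and 18. Of 16 tested, 14 were negative and 7 were lower at an unadjusted p under 0.05, at a median log2 fold change of -0.35, while 11 were called lower after CCl4 in control livers at a median of -1.22. Dusp1, a phosphatase that ends MAP kinase signals, had 1115, 1024, 1929 and 1901 CPM with CCl4, against 2095, 2383, 2540 and 3552 CPM without it (-0.82, SE 0.262, adjusted p = 0.212). The groups did not overlap, and libraries 13 and 14 were the lowest. Itgal, the alpha chain of the integrin LFA-1, had 97.9, 81.1, 227 and 276 CPM with CCl4, against 324, 369, 556 and 483 CPM without it (-1.35, SE 0.328, adjusted p = 0.0892). It stood first by p on the list of cytoskeleton and adhesion genes, where edgeR called 0 of 19, DESeq2 1 and voom 1, and 5 were lower unadjusted.

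Spic, a transcription factor of iron-handling macrophages, had 66.9, 29.7, 169 and 133 CPM with CCl4, against 239, 267, 251 and 212 CPM without it (-1.29, SE 0.429, adjusted p = 0.244), with no overlap between the groups. Fcgr4, an activating Fc receptor, had 40.7, 44.2, 158 and 161 CPM with CCl4, against 180, 192, 223 and 228 CPM without it (-1.03, SE 0.393, adjusted p = 0.332). Both showed the gap between libraries 13 and 14 and libraries 17 and 18. Median log2 fold changes were -0.32 for 16 Kupffer cell transcription factors, -0.42 for 7 Fc receptors, -0.35 for 17 complement genes, -0.33 for 18 iron and heme genes and -0.30 for 24 interferon-stimulated genes. They were -0.30 for 23 cholesterol synthesis genes, -0.28 for 22 genes of efferocytosis and scavenging, -0.37 for 21 genes of innate sensing and -0.26 for 11 chemokine receptors. They were 0.18 for 12 heat shock genes, -0.08 for 16 glycolysis genes, 0.11 for 19 matrix protease genes and 0.08 for 20 growth factors. None of these 13 lists had a gene called by edgeR, DESeq2 or voom with all libraries, with 0 to 5 genes of each at an unadjusted p under 0.05. Without libraries 17 and 18, where 346 of all 11668 genes tested were called lower, genes were called lower on several of them. These were 5 of 7 Fc receptors, 7 of 17 complement genes, 6 of 22 efferocytosis genes and 4 of 12 chemokine receptors. They were also 4 of 16 Kupffer cell transcription factors and 0 to 2 on each of the others. Without libraries 13 and 14 none was called, and the medians of Fc receptors (0.07), chemokine receptors (0.19), glycolysis (0.07), matrix proteases (-0.04) and growth factors (-0.16) changed sign. The median of cholesterol synthesis was -0.81 in that fit and 0.03 without 17 and 18. With the hepatocyte marker level as a term, 1 gene each was called lower among the Kupffer cell transcription factors, Fc receptors, iron and heme genes and cholesterol synthesis genes.

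Libraries with neighbouring numbers had alike levels in several lists. Stellate cell markers were 5740 and 6071 CPM of the library total in libraries 13 and 14, 2061 and 901 in 17 and 18, 1104 and 1174 in 4 and 5, and 4046 and 5491 in 20 and 21. MHC class II genes were 3901 and 3576 in 13 and 14, 9571 and 7675 in 17 and 18, 5053 and 5345 in 4 and 5, and 11400 and 13038 in 20 and 21. The labels give no meaning to the numbers beyond naming the libraries.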
